A study of Rattus norvegicus with 11 samples.

Results

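Voltage-gated calcium channels were followed through the 7 genes for their subunits Cacna1c, Cacna1d, Cacna1g, Cacna1h, Cacnb2, Cacna2d1 and Cacna2d2, which were picked by symbol from a table of 17257 genes. All 7 were measured. Ventricular myocytes, the contractile cells of the lower heart chambers, had been isolated from untreated wild-type Sprague Dawley rats aged 3 to 4 months, with 5 female and 6 male animals, each a biological replicate. The hearts were perfused on a Langendorff apparatus, the cells were kept on dishes for 45 minutes and frozen, and total RNA depleted of ribosomal RNA was sequenced. The study set female against male cells, and no other agent, allele or time was varied.

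A voltage-gated calcium channel consists of an alpha1 subunit, which forms the pore and senses voltage, and of auxiliary beta and alpha2-delta subunits that help bring the pore to the cell surface and adjust its gating. In ventricular myocytes the L-type channel carries the calcium that enters with each beat and triggers release of further calcium from the sarcoplasmic reticulum. T-type channels open at more negative voltages and are best known from pacemaker cells, the atria and the developing or enlarged ventricle.

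Cacna1h, a T-type pore, and Cacna2d2, an alpha2-delta subunit, were higher in female than in male myocytes. Their female means were 2.05-fold and 1.41-fold the male means in the authors' deposited table, each with an adjusted p under the threshold of 0.05 (0.0468 and 0.0380, DESeq). The other 5 subunits did not pass it there. Cacna2d1, the other alpha2-delta subunit, averaged lower in females and missed the threshold in the authors' deposited table. In limma Cacna2d1 passed it over genes with a mean of at least 10, but not without that filter (adjusted p 0.0949). Cacna1c and Cacnb2 had no values per library and were not run in limma. Over all 13346 genes with a mean above 0, 1932 passed, which is 14.5%, with 6.71% higher and 7.76% lower in females. With 2 of 7 subunits called, all of them in one direction, the count rests on so few genes that it was not read as particular to these channels. The median log2 fold change (female over male) was 0.24 over the 7 subunits, the value of the thinly read Cacna1d, and -0.01 over the 12315 genes with reads in both sexes.

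The values used here are reads scaled by the size factor of each library, called normalized reads. Single libraries were recovered from the digits of the deposited means and carry letters in order of falling size factor within a sex, from a to e in females and from a to f in males. Size factors ran from 0.972 to 1.14 in females and from 0.811 to 1.17 in males. On the first principal component of 4265 genes, which held 35.5% of the variance, 4 female libraries lay between 15.6 and 22.2 and 5 male libraries between -23.4 and -11.02. Female library b at -0.17 and male library d at 4.49 lay between these groups, so results are also given without both. Myocyte markers summed to 4116240 normalized reads in females and 3475550 in males over 11 measured genes, far above any other marker list. Much of that difference between the sexes was Myh6, with means of 1330870 in females and 831771 in males (DESeq adjusted p 0.000117). Of the 11 genes Myh6 and Ryr2 were called higher, which is 18.2% of the list, beside 14.5% over all genes. Fibroblast markers summed to 9137 normalized reads in females and 18343 in males. Most of that difference was Col3a1, with means of 3915 in females and 10722 in males (DESeq adjusted p 1.16e-05). Of 8 genes 3 were called lower in females (Col1a1, Col3a1 and Postn) and 0 higher. Among those not called, Dcn, Lum, Pdgfra and Ddr2 averaged lower in females and Tcf21 higher. The share called was 37.5% beside 14.5% over all genes, and with so few genes it is not read as a result about the list. In RNA from whole cell isolates fewer cells of a type and less RNA per cell cannot be told apart.

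The bases just before the start sites of the alpha2-delta genes are shown because these related genes differed between the sexes in opposite directions by their means. They are RefSeq sequences of the assembly GRCr8, 250 bases each, 5′ to 3′ on the gene's strand, at chr8:116950856-116951105 on the plus strand for Cacna2d2 and at chr4:20330148-20330397 on the minus strand for the first of 3 listed starts of Cacna2d1. Capitals mark each match to the GC box, GGGCGG or its reverse complement CCGCCC, with overlapping matches counted.
Cacna2d2: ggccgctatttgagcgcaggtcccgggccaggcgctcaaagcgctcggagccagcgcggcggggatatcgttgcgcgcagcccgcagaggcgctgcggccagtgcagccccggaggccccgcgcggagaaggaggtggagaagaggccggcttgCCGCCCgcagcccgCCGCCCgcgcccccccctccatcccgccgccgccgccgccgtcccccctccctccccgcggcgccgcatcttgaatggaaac
Cacna2d1: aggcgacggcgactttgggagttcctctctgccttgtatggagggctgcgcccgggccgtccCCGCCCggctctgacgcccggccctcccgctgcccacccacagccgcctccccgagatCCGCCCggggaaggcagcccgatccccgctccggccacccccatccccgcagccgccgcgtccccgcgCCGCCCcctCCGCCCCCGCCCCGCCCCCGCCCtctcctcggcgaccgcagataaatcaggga
There were 2 matches before Cacna2d2 and 7 before Cacna2d1, and 30.5% of 33469 RefSeq windows of this length held at least 1. G and C made up 76.8% of the bases before Cacna2d2 and 77.2% of those before Cacna2d1. The letters AGGTCA or TGACCT, a half-site bound by nuclear receptors, were in neither window and in 14.1% of all windows. Of the 7 subunits 5 matched an entry, while Cacna1g and Cacna1h are named only. These matches are a description of the letters and say nothing of binding.

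Among the pore subunits of the L-type channel, Cacna1c encodes the main pore of the ventricular L-type channel. Its mean was 6604 normalized reads in females and 5489 in males in the authors' deposited table, a 1.20-fold difference that missed the threshold (adjusted p 0.175). The unadjusted p was 0.0469. Reads of single libraries were not recovered at this depth, but the deposited p fixed the summed reads at 34633 in females and 32671 in males. It also showed that the test used the dispersion curve of the authors' DESeq fit for Cacna1c. The spread of libraries within their sex, pooled over both sexes, was thus at most 15.2% of the mean over all libraries. The log2 fold change of 0.27 had a standard error of 0.13 from that curve.

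Cacna1d encodes a second L-type pore, known for pacemaker activity in the sinoatrial node. It was read thinly. Reads in female libraries a to e numbered 15, 11, 20, 0 and 20, and those in male libraries a to f 11, 3, 18, 17, 9 and 5. Female library d held no read, which allows up to 3, and the remaining female values lay among or just above the male ones. Normalized reads were 12.6 ± 8.26 (SD, n = 5) in females and 10.7 ± 5.91 (SD, n = 6) in males, with an exact permutation p = 0.662 (two-sided). A difference between the sexes was not detectable at this depth, since the log2 fold change of 0.24 had a standard error of 0.74. Its direction also turned: the mean difference on the log2 scale was -0.14, and the difference of the means, female minus male, was -0.078 normalized reads without female library e and 0.284 without female library c, against 1.92 with all libraries.

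Of the T-type pores, Cacna1h was higher in females, while Cacna1g did not pass the threshold (adjusted p 0.851 in the authors' deposited table). Whether the pores differ from each other in this was not tested. In Cacna1h the female libraries a to e had 675, 358, 325, 292 and 355 normalized reads. The male libraries a to f had 244, 125, 245, 329, 126 and 106. All but 1 of the males lay below every female, and male library d lay above the females c and d. Means were 401 ± 155 (SD, n = 5) in females and 196 ± 90.0 (SD, n = 6) in males, an exact permutation p = 0.0130 (two-sided). The log2 fold change was 1.04 with a standard error of 0.37. In limma on log2 values, which called 12.2% of 5668 genes, Cacna1h had an adjusted p of 0.0191.

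Female library a held 766 reads of Cacna1h and stood apart from the other females. Without it the female mean of Cacna1h was 333 ± 30.9 (SD, n = 4), which was 1.70-fold the male mean, and the limma adjusted p was 0.0616 with a log2 fold change of 0.89. The call of Cacna1h in limma was thus lost without that library, and it held when any other single library was left out. Without female library b and male library d the Cacna1h means were 412 ± 177 (SD, n = 4) in females and 169 ± 69.1 (SD, n = 5) in males, with an exact permutation p = 0.0159, the smallest that these numbers allow. These libraries were picked after the data were seen, for lying between the sexes, and male library d was the only male that overlapped the females in Cacna1h, so leaving them out favours separation.

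Cacna1g is the other T-type pore of the heart. Its normalized reads in female libraries a to e were 164, 104, 85.2, 104 and 48.4. In the males a to f they were 116, 81.5, 124, 105, 36.6 and 64.1. The sexes overlapped almost wholly, with 1 female above every male and 1 male below every female. Cacna1g averaged 101 ± 41.8 (SD, n = 5) in females and 87.9 ± 33.5 (SD, n = 6) in males (exact permutation p = 0.580, two-sided), and had a log2 fold change of 0.20 ± 0.35 (SE). Without female library a the female mean of Cacna1g was 85.4 ± 26.2 (SD, n = 4), 0.972-fold the male mean, so the direction of the means turned. The limma log2 fold change of Cacna1g was 0.0059 without that library and -0.0215 without male library e, against 0.20 with all libraries. Within a library there were 4.31 ± 1.76 reads of Cacna1h per read of Cacna1g in females (SD, n = 5) and 2.30 ± 0.79 in males (SD, n = 6). That ratio was highest in female library e, at 7.34, while male libraries d and e, at 3.13 and 3.43, lay above female library d at 2.81. The pair was chosen after its values were seen and the ratio is given without a test.

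**Figure D1:**
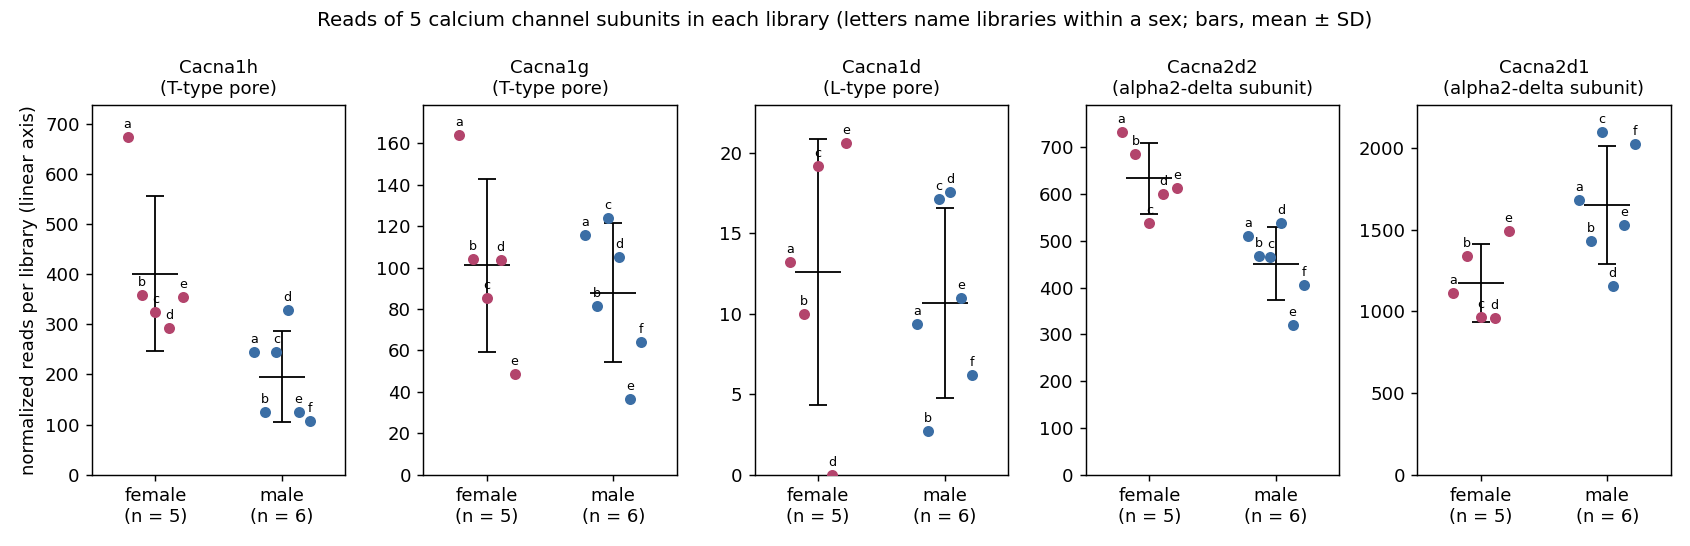
Normalized reads of Cacna1h, Cacna1g, Cacna1d, Cacna2d2 and Cacna2d1 in each library on linear axes from 0, with females left and males right in each panel; points are libraries with their letters and bars are the mean ± SD. All females lie above all males in Cacna2d2 (lowest female 539, highest male 538), while Cacna1g and Cacna1d overlap widely.

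Cacnb2 encodes the main beta subunit of the ventricular L-type channel, which binds the pore inside the cell. Its mean was 5081 normalized reads in females and 5132 in males in the authors' deposited table, with a log2 fold change of -0.01. The summed reads were 26531 in females and 30218 in males. The test of Cacnb2 used the dispersion curve too, so the spread within the sexes, pooled over both, was at most 15.3% of the mean over all libraries. The curve gave a standard error of 0.13 on the log2 scale. For each 1000 normalized reads of Cacna1c there were 769 of Cacnb2 in females and 935 in males, as group means with no value per library. Such a ratio is of reads, not of molecules, because the genes' lengths were not used.

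The alpha2-delta subunits, extracellular proteins anchored in the membrane and the target of gabapentin, differed in opposite directions by their means. Cacna2d2 had 733, 686, 539, 601 and 612 normalized reads in female libraries a to e. In male libraries a to f it had 511, 468, 465, 538, 320 and 406. Every female library lay above every male one, though female library c and male library d were nearly equal. Of 5668 genes with reads recovered per library and a mean of at least 10, 155 had all females above all males, or 2.73%, and 2.38% had all females below all males. Cacna2d2 averaged 634 ± 76.1 (SD, n = 5) in females and 451 ± 78.6 (SD, n = 6) in males, with an exact permutation p = 0.00433 (two-sided), the smallest that 5 against 6 libraries allow. The log2 fold change was 0.49 ± 0.17 (SE), and the limma adjusted p was 0.0280. When single libraries were left out in limma, Cacna2d2 stayed under 0.05 in 6 of 11 fits. It reached 0.0542 without male library e, 0.0578 without male library f, 0.0825 without female library a, 0.0505 without female library d and 0.0555 without female library e. Without female library b and male library d the means were 621 ± 81.2 (SD, n = 4) in females and 434 ± 73.8 (SD, n = 5) in males.

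Cacna2d1 is the alpha2-delta subunit most closely tied to the cardiac L-type channel. The female libraries a to e had 1110, 1338, 964, 956 and 1494 normalized reads of Cacna2d1, and the male libraries a to f had 1681, 1430, 2099, 1155, 1527 and 2023. Females a, c and d lay below every male, and males a, c, e and f lay above every female. Female means were 1172 ± 237 (SD, n = 5) and male means 1653 ± 361 (SD, n = 6). The authors' deposited table gave Cacna2d1 a DESeq adjusted p of 0.0658, which misses the threshold. The exact permutation p for Cacna2d1 alone was 0.0303 (two-sided, not adjusted), and the limma adjusted p over 5668 genes was 0.0348. The log2 fold change of Cacna2d1 was -0.50 ± 0.19 (SE). With male library d, the lowest male, left out, limma gave an adjusted p of 0.00521, and leaving out each library in turn gave adjusted p-values up to 0.0933, under 0.05 in 5 of 11 fits. It was over 0.05 without male library a, c or f, at 0.0622, 0.0767 and 0.0782, and without female library a, c or d, at 0.0776, 0.0933 and 0.0919. Without female library b and male library d the Cacna2d1 means were 1131 ± 252 (SD, n = 4) in females and 1752 ± 297 (SD, n = 5) in males. The exact permutation p was then 0.0317. These libraries were picked after the data were seen, for lying between the sexes. Male library d was also the lowest male in Cacna2d1, so leaving them out favours separation here too, and that p is no further support.

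**Figure D2:**
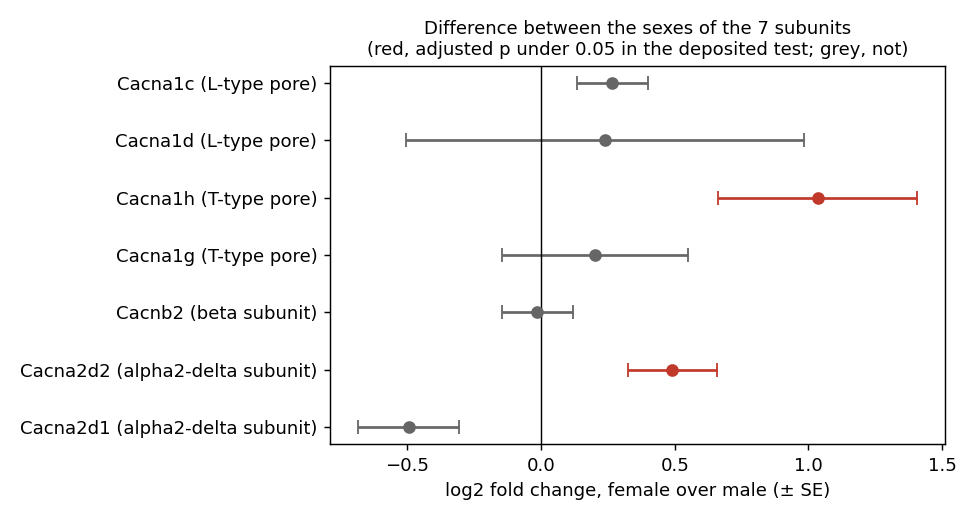
Log2 fold change (female over male) of the 7 subunits, grouped by role, with bars of 1 standard error from the dispersion the authors' test used; red marks the 2 subunits called in the authors' deposited table. Cacna1h (1.04) and Cacna2d2 (0.49) are marked, and Cacna2d1 (-0.50) lies on the other side of 0.

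The balance of the alpha2-delta subunits can be read within a library, where the size factor cancels. For each read of Cacna2d1 there were 0.660, 0.513, 0.559, 0.628 and 0.410 reads of Cacna2d2 in female libraries a to e. In male libraries a to f there were 0.304, 0.327, 0.221, 0.466, 0.209 and 0.2005. Male library d was the only male above a female, and it was above female library e alone. The ratio was 0.554 ± 0.099 (SD, n = 5) in females and 0.288 ± 0.102 (SD, n = 6) in males, a 1.99-fold difference on the log scale. It was taken after both genes had been seen to differ and is a description with no test.

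**Figure D3:**
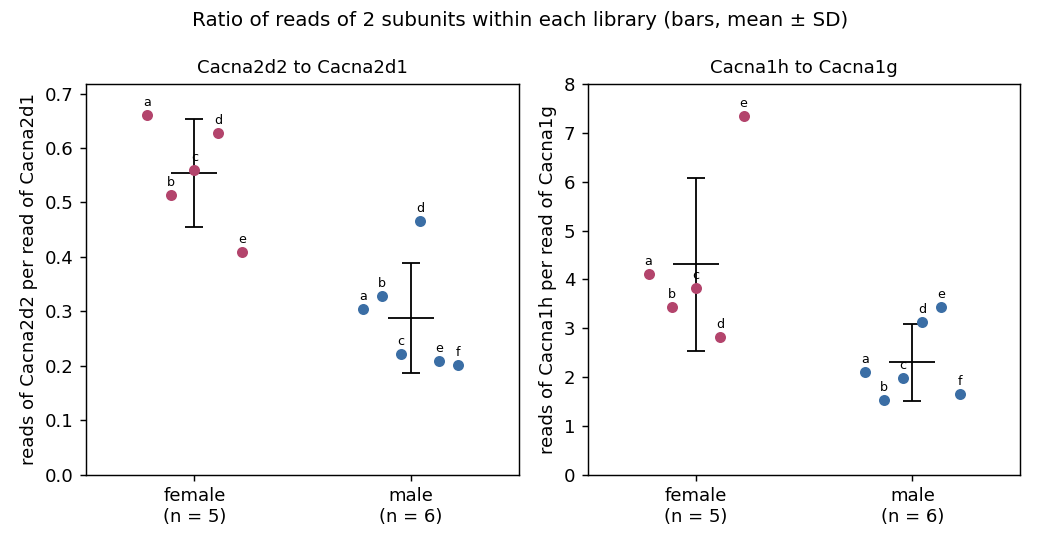
Reads of Cacna2d2 per read of Cacna2d1 (left panel) and of Cacna1h per read of Cacna1g (right panel) in each library, females left and males right, on linear axes from 0 with the mean ± SD as bars. In the left panel the females lie between 0.410 and 0.660 and all males but library d lie at or under 0.327.

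Set against Cacna1c by the group means, the members shifted unevenly. Per 1000 normalized reads of Cacna1c, Cacna1h had 60.7 in females and 35.7 in males. Cacna1g had 15.3 in females and 16.0 in males on that scale. Cacna2d2 had 96.0 in females and 82.2 in males, and Cacna2d1 had 178 in females and 301 in males. These ratios have no replicate check, since Cacna1c was known by group mean only.

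Libraries of one sex also varied together in some subunits. After centring log2 (normalized reads + 1) on the mean of each sex, Cacna1g and Cacna2d2 had a Pearson r of 0.80 and a Spearman rho of 0.78 over 11 libraries. For Cacna1h and Cacna2d2 r was 0.73 and rho 0.75, and for Cacna1g and Cacna1h r was 0.69 and rho 0.77. Leaving out the 2 libraries farthest from the median gave r of 0.76, 0.58 and 0.88 for these 3 pairs. Cacna2d1 had r between -0.17 and -0.06 with these 3 genes, and between 0.02 and 0.33 without the 2 farthest libraries. These are 6 of 10 pairs compared, given as a description with no p, and the values of a library share its size factor.

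Genes most like a subunit over the 11 libraries were sought among 5310 others with reads in every library, after the same centring. Cacna1h was nearest to Napepld, an enzyme that makes N-acylethanolamines, with r of 0.94, then to Rab6b, a small GTPase of Golgi traffic, at 0.90, and to Ern1, a sensor of unfolded protein, at 0.88. Ern1 was also nearest to Cacna2d2, at 0.93, followed by Slc24a3, a sodium, calcium and potassium exchanger, at 0.92 and Psma3l at 0.91. For Cacna2d1 the nearest were Zbtb44 at 0.97, Hsd17b12 at 0.96 and Zfp426 at 0.96. For Cacna1g they were Slc7a15 at 0.89, Tsr3 at 0.88 and Myo16 at 0.87. None of these 11 genes passed the threshold between the sexes in the authors' deposited table, beside 14.5% of all genes. With so few genes that count is not read as a result about them. Each r was picked as one of the highest of 5310 over only 11 libraries, so such values can arise without any link. What unrelated genes would give was not worked out. The values of a library also share its size factor, and the list is a description with no p.

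Of 19 other calcium channel subunits listed, 15 had reads and 0 passed the threshold in the authors' deposited table, beside 14.5% of all genes. DESeq gave Cacna2d3 alone an unadjusted p under 0.05. Limma called 0 of the 5 with a mean of at least 10, beside 12.2% of all genes. Without that filter it called 0 of the 15, beside 6.11% of all genes. With so few genes, many of them read thinly, these counts are not read as a result about the list. Cacna2d3, a further alpha2-delta subunit, had 16, 29, 0, 14 and 36 reads in female libraries a to e, and 11, 8, 4, 0, 5 and 0 in male libraries a to f. In the authors' deposited table its p was 0.0207 before adjustment and 0.101 after it. Among the pores, Cacna1a, a P/Q-type pore of nerve terminals, had 189 ± 79.5 normalized reads in females (SD, n = 5) and 165 ± 43.6 in males (SD, n = 6). Cacna1e, an R-type pore, had 10 reads over the females and 8 over the males. Cacna1f, the L-type pore of the retina, had 17 reads in 2 female libraries and was at 0 in all males.

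Among the beta subunits, Cacnb1 had 16.9 ± 7.34 normalized reads in females (SD, n = 5) and 16.2 ± 8.92 in males (SD, n = 6). Cacnb3 had 28.3 ± 20.1 in females and 32.0 ± 14.3 in males. Of the gamma subunits, Cacng6 had 91.3 ± 28.5 in females and 71.5 ± 20.5 in males, Cacng4 had 57 reads over the females and 48 over the males, and Cacng7 had 8 reads in each sex. Each of these genes overlapped between the sexes. The median log2 fold change over the 9 other subunits with reads in both sexes was 0.19.

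**Figure D4:**
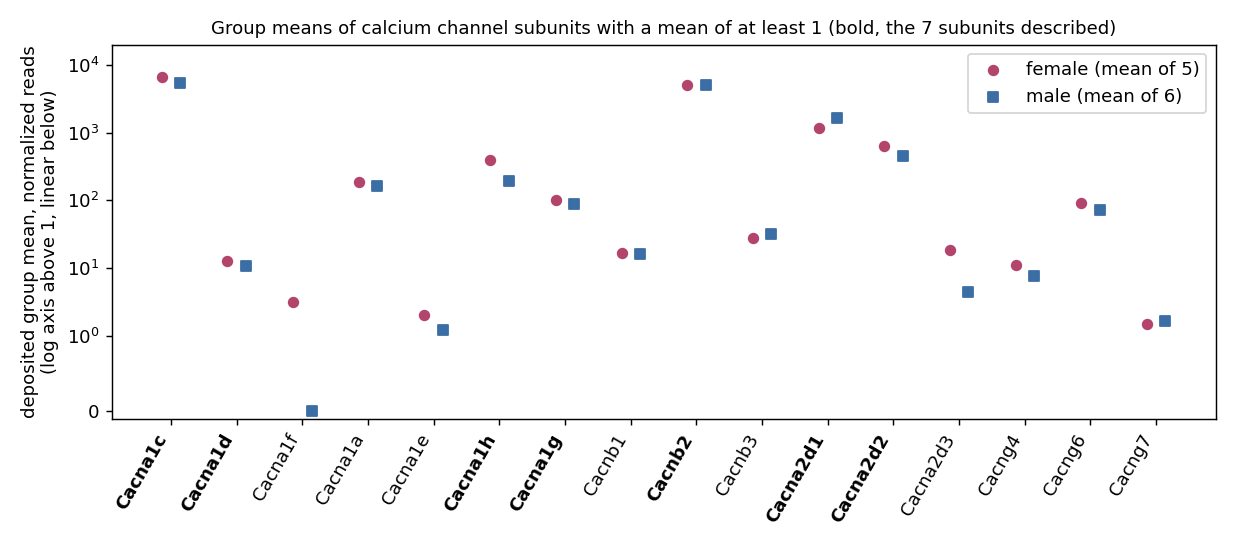
Deposited group means of the 16 calcium channel subunits with a mean of at least 1, in normalized reads on a log axis above 1 (linear below), females as circles left of males as squares, ordered by subunit class with the 7 described in bold. The sexes lie close together for most subunits, with Cacna1h (401 in females, 196 in males), Cacna2d3 (18.4 in females, 4.42 in males) and Cacna1f (3.18 in females, 0 in males) further apart; heights of different genes are not compared, since gene length was not used.

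Of 26 listed regulators of the L-type channel, 24 were measured, and 2 were higher and 2 lower in females in the authors' deposited table. That is 16.7% of the list, close to the 14.5% over all genes, and is not read as a result about the list. Adrb1, the beta-adrenergic receptor through which noradrenaline raises L-type current, had means of 196 normalized reads in females and 117 in males (adjusted p 0.0248 in the authors' deposited table). Jph2, which holds the surface and reticulum membranes together, had means of 19473 in females and 14671 in males (adjusted p 0.0264 in the authors' deposited table). Wwp1, a ubiquitin ligase, had 1592 in females and 2868 in males, the smallest p of the list (adjusted p 0.0149 in the authors' deposited table). Ppp3ca, a catalytic subunit of calcineurin, had 1030 in females and 1587 in males (adjusted p 0.0211 in the authors' deposited table). The median log2 fold change of the list was -0.22.

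Of 16 partners acting after calcium entry, 15 were measured, and 2 were higher and 1 lower in females in the authors' deposited table. With 3 of 15 called, a share of 20% beside 14.5% over all genes, this count too is not read as a result about the list. Ryr2, the release channel of the sarcoplasmic reticulum, had means of 127126 normalized reads in females and 98148 in males (adjusted p 0.0491 in the authors' deposited table). Jph2, also on this list, is given above. Trdn, which anchors calsequestrin to that channel, had means of 7404 in females and 12549 in males (adjusted p 0.0315 in the authors' deposited table). The median log2 fold change of these partners was -0.03.

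Markers of cells that could accompany the myocytes were set beside these results. Atrial and conduction markers summed to 5252 normalized reads in females and 2776 in males over 11 measured genes, 0 of them called in the authors' DESeq table. Most of that difference was Myl7, an atrial myosin light chain, with means of 2548 in females and 287 in males (adjusted p 0.427 in the authors' deposited table), and without it the sums were 2704 in females and 2489 in males. The 8 of these genes with values per library summed to between 192 and 360 in females and between 139 and 279 in males. Myl7, Nppa and Hcn4 were not among them. Female library a, the highest in Cacna1h, was also the highest in that sum, at 360. It was the lowest female in the sums per library of smooth muscle and pericyte markers, at 703, and of fibroblast markers, at 577. The same held for macrophage and leukocyte markers, at 577, and for neuronal and glial markers, at 68.7. Its endothelial value, of 1 gene, lay within the range of the other females. Smooth muscle and pericyte markers summed to 9852 in females and 8634 in males, with 1 of 10, Smtn, higher, and 5 of them ranged from 703 to 1572 in females and from 478 to 957 in males. Fibroblast markers with values per library, 5 of 8, summed to between 577 and 1279 in females and between 833 and 1892 in males, and Col1a2 was listed at 0. Endothelial markers summed to 22110 in females and 21805 in males, with Vwf and Egfl7 higher and Emcn lower among 9. Macrophage and leukocyte markers summed to 966 in females and 1278 in males, with Mrc1 lower among 9, and neuronal and glial markers to 89.2 in females and 74.2 in males with 0 of 7 called in the authors' DESeq table, Th and Chga being at 0. The part of these cells in the differences of Cacna1h, Cacna2d1 and Cacna2d2 was not tested. The shares called in the authors' deposited table were 33.3% of endothelial, 10% of smooth muscle and pericyte and 11.1% of macrophage and leukocyte markers. Over all genes 14.5% passed, and with few genes in each marker list these counts are not read as results about the lists.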

How the data were processed

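The table holds values for 6 male and 5 female libraries and was used as deposited. The submitters' processing notes name DESeq, HTSeq 0.6.1, TopHat2 2.0.12, Trimmomatic 0.32, FastQC and the build rn6; settings, annotation and use of strand are not given in the sources used here. Per the file headers, the authors gave each gene a mean normalized signal (gene counts scaled by size factors) over all libraries and over groups A and B, a linear ratio of the group means as fold change, its log2 value, and a p-value with its adjusted value. The overall mean weighted A as 6 libraries and B as 5 in each of the 13346 genes above 0, within a relative 1e-09, so A was read as male and B as female. Fold changes are female over male, and the adjusted p-value was a Benjamini-Hochberg adjustment over these genes.

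Reads per library were recovered, partly as planned and, for larger means, by a step added after the data were seen. The sum behind a group mean consists of whole reads, each over the size factor of its library, and all read vectors with that sum were listed by lattice search up to group means of 700, beyond that for Cacna2d1, with limits on the dispersion of 0.5 from 100 to 300, 0.2 from there and 0.1 for Cacna2d1. The authors' test was recomputed for each pair of vectors, and a pair was taken where it alone gave the deposited p within a relative 1e-10. Of 8603 genes searched 8495 were recovered. For 5022 of 5025 genes with 1 candidate in each sex the recomputed p equalled the deposited one. In 1465 genes with few candidate pairs, searched with a shifted p, 0 matched. On simulated data 150, 149 and 145 of 150 genes were recovered at means under 100, from 100 to 300 and from 300 to 700, with 0 wrong. Neither check covered Cacna2d1, whose means lay above 700 and whose candidates were many. Libraries held between 980724 and 1403688 of these reads; this is not their full depth. Their replicate numbers are unknown.

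Members with recovered reads were tested by an exact permutation test of the mean normalized reads (two-sided, 462 assignments), and across genes with limma 3.58.1 in R 4.3.3 on log2 (normalized reads + 1), for means of at least 10. On data simulated for 5668 genes, 200 of them changed, that fit called 25.0%, 70.5% and 95.5% of genes changed 1.5-fold, 2-fold and 4-fold. Among the unchanged genes it called 2, 3 and 12. The simulated reads followed the fitted dispersion curve, with genes independent of each other. Cacna1h, Cacna1g and Cacna2d1 varied more than that curve, so these shares do not apply directly to them. Standard errors of deposited fold changes come from the dispersion that the authors' test used. Correlations used scipy 1.17.1 and numpy 2.4.6. The per-sample columns left unused numbered 0.

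The members and lists were chosen with earlier results of these data known. Named are the 7 subunits, other subunits with a mean of at least 1, listed regulators and partners past the threshold or with the smallest p, and the 3 genes most like each member with reads in all 11 libraries. Levels per length were not analysed here.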

Additional observations from a re-analysis of the deposited data

Results flagged for a closer look

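In 38 groups of libraries, 1 for each sex and each calcium channel subunit with varying reads or ratio of 2 subunits, 12 libraries stood far from the others of their sex by Dixon's criterion. Chance meets it in about 5% of groups of continuous values, a rate that does not apply to genes with a handful of reads: in 6 of the 12 every other library of the sex was at 0, which meets it by construction.

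Cacna1h had 675 normalized reads in female library a (766 reads), while the other females lay between 292 and 358. The ratio of Cacna1h to Cacna1g was 7.34 in female library e, against 2.81 to 4.12 in the other females. Cacnb3 had 60.9 normalized reads in male library d, against 22.2 to 28.6 in the other males.

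The rest rested on 1 to 7 reads in a library. Normalized reads in female libraries were 4.11 for Cacna1b in library d, 3.09 for Cacna1i in library d, 2.87 for Cacna1s in library c, 1.81 for Cacna2d4 in library b, 6.70 for Cacng7 in library c and 0.881 for Cacng8 in library a. In male libraries they were 5.71 for Cacna1e in library c, 5.11 for Cacnb4 in library a and 5.16 for Cacna2d4 in library d.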

How the results depend on the processing

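In the authors' deposited table, 2 members were called at a threshold of 0.05, 3 at 0.1 and 0 at 0.01, and 2 or 3 with the adjustment over genes with a mean of at least 10 or 50. The lower Cacna2d1 mean in females had a permutation p of 0.0952 on reads not scaled and a limma adjusted p of 0.0949 with no filter on the mean. Cacna1d changed direction on the log scale, where its log2 difference was -0.14 with an exact permutation p of 0.883 and limma adjusted p-values of 0.927 (mean of at least 10) and 0.940 (no filter). The cause of these differences was not tested.

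Leaving out each library in turn gave exact permutation p-values from 0.0159 to 0.0667 for Cacna2d1 and from 0.00794 to 0.0286 for Cacna1h. They ran from 0.2 to 0.971 for Cacna1d and from 0.276 to 0.897 for Cacna1g. For Cacna2d2 they ran from 0.00794 to 0.00952, in each refit the smallest that the libraries left allow. All females lay above all males in Cacna2d2, which fixed its values in advance, so they are no further check. Cacna2d1 was over 0.05 without male library a, c or f or female library a, c or d. The means of Cacna1g changed direction without female library a, and the means of Cacna1d without female library e. Setting the totals of named genes equal moved every log2 fold change by -0.06, and neither this nor centring on the median or adding 1 to the means reversed a member. The numbers of other subunits, regulators, partners and all genes called stayed within 1.5 times under both filters on the mean (1932, 2127 and 2192 genes in all). In limma the genes called made up from 5.13% without female library a to 19.2% without male library d. No paired analysis was possible because the table carries no replicate numbers. Levels per length were not run.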
